A study of Mus musculus with 4 samples.

Results

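Basal and myoepithelial genes other than keratins and integrins were described in 4 mouse mammary tumor cell lines. They were the 10 genes Trp63, Snai2, Sox10, Acta2, Myl9, Tagln, Cnn1, Mylk, Myh11 and Oxtr, chosen by symbol, and all 10 had a row among the 38713 genes with usable values. RNA was sequenced from 2 lines with intact JNK genes (JNK_WT, replicates 1 and 2, genotype p53-/-) and from 2 lines that lacked the JNK kinases as well (JNK_KO, replicates 1 and 3, genotype p53-/- JNK-/-), all of strain C57BL/6. In all 4, the Wap promoter, which drives expression in the secretory cells of the pregnant and lactating gland, controlled the Cre recombinase that deleted floxed Trp53, and JNK_KO animals carried floxed alleles of the JNK1 and JNK2 genes, Mapk8 and Mapk9, as well. Each line was grown from a dispersed tumor and passaged in culture, and each gave 1 library, so n is 2 lines per genotype and a line and its library cannot be told apart. The mice of the study were females that had been bred, and they were followed for tumors after weaning. Their age when these tumors were taken was not given in the sources used here. The labels do not say whether the tumors came from separate animals.

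The mammary gland has an inner luminal layer that makes milk and an outer basal layer of myoepithelial cells that squeezes it out. Myoepithelial cells are epithelial cells with a smooth muscle program: oxytocin released at suckling binds its receptor Oxtr, calcium rises, myosin light chain kinase (Mylk) phosphorylates the regulatory light chain (Myl9), and the smooth muscle heavy chain (Myh11) pulls on actin filaments of smooth muscle actin (Acta2) that are decorated with calponin (Cnn1) and transgelin (Tagln). Smooth muscle genes are switched on by serum response factor (Srf), which binds the CArG box, with the coactivators myocardin and the myocardin-related factors. The basal state itself rests on transcription factors, among them p63 (Trp63), Slug (Snai2, which binds E-boxes, CANNTG) and, in part of the layer, Sox10.

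Promoter sequence is shown for the 2 contractile genes in which a CArG box or a match with 1 other base was found, because that element is the best known shared feature of the program. RefSeq windows on GRCm38.p6, from 250 bases before to 50 bases after a start, were at hand for 5 genes (Acta2, Cnn1, Mylk, Myl9 and Oxtr). Positions are counted from the RefSeq start, negative before it. Capitals mark the CArG box matches, the sequences read 5′ to 3′ on the strand of the gene, and the first line is Myl9 (chr2:156775214-156775413, plus strand, bases -250 to -51), followed by 30 bases around each match of Acta2 (minus strand, chr19:34255438-34255467, bases -94 to -65, and chr19:34255388-34255417, bases -44 to -15).
Myl9: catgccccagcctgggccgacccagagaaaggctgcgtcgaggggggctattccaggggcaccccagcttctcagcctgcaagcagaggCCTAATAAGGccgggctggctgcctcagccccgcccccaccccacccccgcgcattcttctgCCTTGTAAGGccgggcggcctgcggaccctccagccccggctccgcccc
Acta2, far match: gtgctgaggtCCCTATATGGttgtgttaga
Acta2, near match: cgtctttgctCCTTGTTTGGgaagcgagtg

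The exact CArG box was found in Myl9, at bases -161 to -152, and in none of the other 4 windows. Of 32851 RefSeq promoter windows of this length, 1.63% held it. Matches with exactly 1 of the 6 middle bases G or C were also searched, a setting chosen after the data were seen. Of all windows, 8.50% held such a match and 9.98% held either form. Among the 5 genes, such matches were a second site in Myl9 (-99 to -90) and both sites in Acta2 (-84 to -75 and -34 to -25). The motif CANNTG, which overlapped none of these sites, was present 3 times in Acta2, 2 times in Oxtr, 1 time each in Cnn1 and Myl9 and not in Mylk, and 72.3% of all windows held it. Only the strand of the gene was searched, and these palindromic patterns have the same sites on the other strand. Gene models differ in where transcription starts: the outermost GENCODE start lies 217 bases before the RefSeq start of Acta2, so that the Acta2 matches fall in its first exon there, 44 bases before that of Myl9 and 39740 bases before that of Mylk, a gene with several promoters. A match is a description of the sequence, and no binding was measured.

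**Figure D1:**
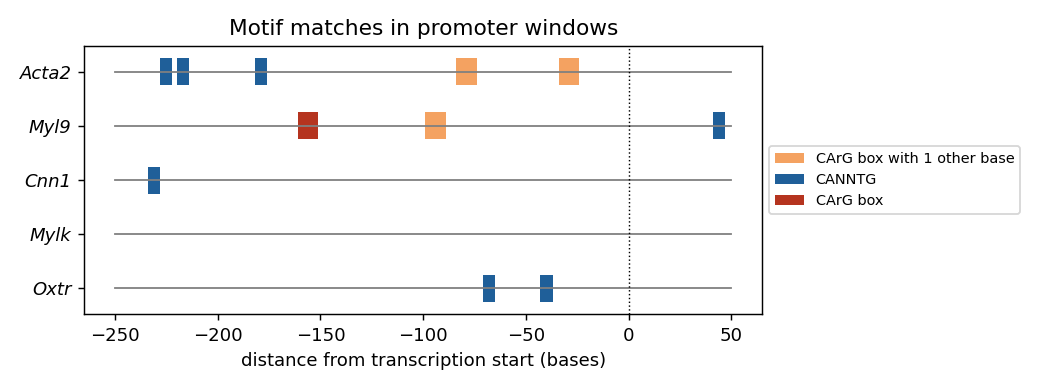
Motif matches in the promoter windows of 5 genes. The x axis is the distance in bases from the RefSeq start, from 250 before to 50 after, each grey line is a gene, and colored blocks are matches to the CArG box (red), the CArG box with 1 other base (orange) and CANNTG (blue). Myl9 holds the exact CArG box, Acta2 holds 2 matches with 1 other base, and Mylk holds no match.

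Levels are given as FPKM, mapped fragments scaled by transcript length and by the mapped total, which allows levels of different genes to be set side by side. Summed FPKM lay between 775960 and 921595 per library, and 12407 to 12875 genes reached 1 FPKM. Mapk8 had 23.9 and 19.1 FPKM in JNK_WT and 4.30 and 4.27 in JNK_KO, and Mapk9 had 29.7 and 24.3 against 12.6 and 8.66, so both were lower in the lines labelled JNK_KO although neither passed the test (limma adjusted p = 0.191 and 0.429). Trp53, floxed in all lines, had 1.55 and 4.15 FPKM in JNK_WT and 5.72 and 4.28 in JNK_KO, higher in both JNK_KO lines by a difference that did not pass the test (limma adjusted p = 0.886), and since both genotypes carry the deletion it does not check which line is which.

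Trp63, the master factor of stratified and basal epithelium (chr16:25683763-25892102, plus strand), varied most. It measured 0.0706 and 21.9 FPKM in JNK_WT replicates 1 and 2, and 1.16 and 6.58 FPKM in JNK_KO replicates 1 and 3. Replicate 2 was 310-fold above replicate 1 within JNK_WT, and replicate 3 was 5.70-fold above replicate 1 within JNK_KO. Both the highest and the lowest value thus lay in JNK_WT, and the groups overlapped. The group means were 10.97 ± 15.4 FPKM for JNK_WT and 3.87 ± 3.84 for JNK_KO (SD, n = 2), with an SD about as large as the mean or larger. In bulk RNA, fewer cells of a type and less RNA per cell cannot be told apart.

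Snai2, the E-box repressor Slug (chr16:14705852-14709385, plus strand), had 1.52 and 13.2 FPKM in the JNK_WT lines and 5.42 and 2.24 in the JNK_KO lines. JNK_WT replicate 2 was again highest, 8.71-fold above replicate 1, but within JNK_KO the order was the opposite of that of Trp63. Sox10, a neural crest factor also found in mammary basal and progenitor cells (chr15:79154908-79165240, minus strand), was at 0.0755 and 0.202 FPKM in JNK_WT and at 0.0544 and 3.49 in JNK_KO. JNK_KO replicate 3 was the only library in which Sox10 reached 1 FPKM, 17.3-fold above the next library. The 3 transcription factors thus did not share an order of the lines.

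Acta2, smooth muscle actin and the usual stain for myoepithelium (chr19:34241090-34255590, minus strand), measured 7.36 and 3.19 FPKM in JNK_WT and 1.70 and 29.0 in JNK_KO. JNK_KO replicate 3 stood 3.93-fold above the next library and 17.1-fold above the other JNK_KO line, so the 2 JNK_KO lines held the highest and the lowest value. Myl9, the regulatory light chain that carries the exact CArG box shown above (chr2:156775420-156781658, plus strand), had 6.89 and 1.19 FPKM in JNK_WT and 5.75 and 5.23 in JNK_KO. Here JNK_WT replicate 2 stood below the other 3 libraries, which lay between 5.23 and 6.89. Tagln, the actin-bundling protein SM22 (chr9:45929619-45936058, minus strand), was near 1 FPKM in every library, with 1.32 and 1.35 in JNK_WT and 0.822 and 1.30 in JNK_KO. Its exons overlap the opposite-strand genes Pcsk7 and Gm48529, and 60.4% of the 40-base windows of its transcripts, the read length here, were also found in transcripts of other genes. Strand was not stated to be kept, so reads of Tagln and of Pcsk7 (5.30, 8.19, 6.10 and 8.95 FPKM in the same order of libraries) cannot be told apart where they overlap.

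Cnn1, basic calponin (chr9:22099216-22109630, plus strand), and Mylk, the kinase (chr16:34745210-35002420, plus strand), reached 1 FPKM in a single line, JNK_WT replicate 2. Cnn1 had 0.277 and 2.24 FPKM in JNK_WT and 0.423 and 0.438 in JNK_KO. Mylk had 0.139 and 1.79 FPKM in JNK_WT and 0.344 and 0.369 in JNK_KO. JNK_WT replicate 2 was 5.11-fold above the next library for Cnn1 and 4.86-fold for Mylk, while the JNK_KO lines were close to each other for both genes.

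Myh11, the smooth muscle myosin heavy chain (chr16:14194535-14291372, minus strand), and Oxtr, the oxytocin receptor (chr6:112473683-112489943, minus strand), stayed under 1 FPKM throughout. Myh11 had 0.0534 and 0.0110 FPKM in JNK_WT and 0.0206 and 0.171 in JNK_KO. Oxtr had 0.00881 and 0.0220 FPKM in JNK_WT and 0.0564 and 0.0333 in JNK_KO. Scaled by the depths of the libraries relative to JNK_KO replicate 1 (1.06, 1.27 and 1.40 for JNK_WT replicates 1 and 2 and JNK_KO replicate 3), the Oxtr values were 1.0, 2.99, 6.01 and 4.99 times the lowest of them, close to whole multiples, so they rest on very few reads. No difference in Oxtr was detectable at this depth, and Myh11, like Oxtr, did not reach the level set for the main test.

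No line carried the whole contractile set. None had Acta2, Tagln, Cnn1, Mylk, Myh11 and Oxtr all at 1 FPKM or more, and at most 7 of the 10 genes reached that level, in JNK_WT replicate 2. JNK_KO replicate 3 reached it for 6 genes, and the other 2 lines for 4 each. 

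**Figure D2:**
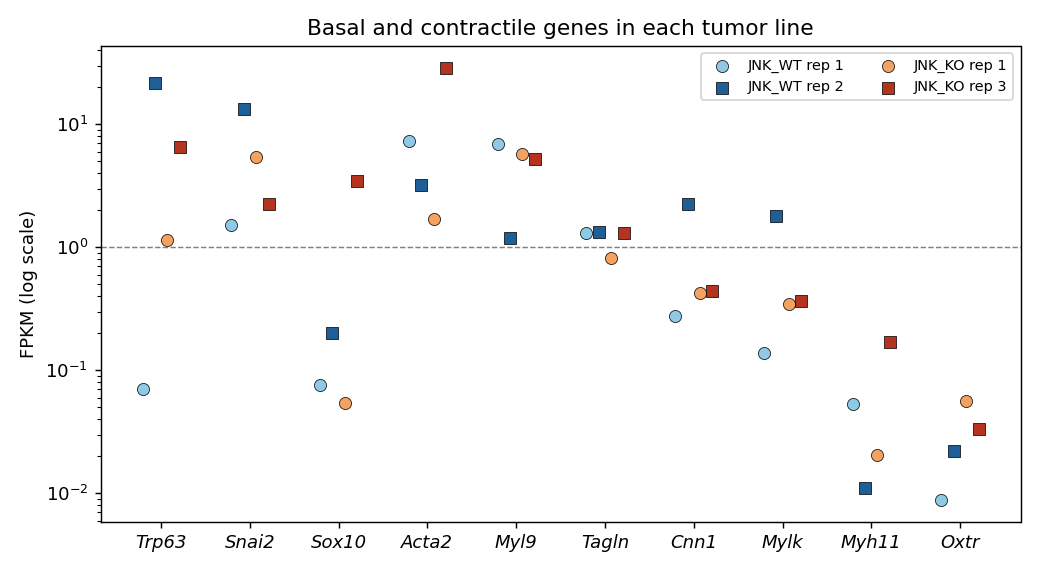
FPKM of the 10 genes in each tumor line, on a log axis, with the dashed line at 1 FPKM. Circles are replicate 1 of each genotype, squares JNK_WT replicate 2 (dark blue) and JNK_KO replicate 3 (red). Trp63 spans 0.0706 to 21.9 FPKM, JNK_KO replicate 3 leads for Acta2 and Sox10, JNK_WT replicate 2 leads for Trp63, Snai2, Cnn1 and Mylk, and Myh11 and Oxtr stay under 1 FPKM.

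Which line led depended on the gene. JNK_WT replicate 2 held the highest value of 5 of the 10 genes (Trp63, Snai2, Tagln, Cnn1 and Mylk), JNK_KO replicate 3 that of 3 (Sox10, Acta2 and Myh11), and JNK_WT replicate 1 (Myl9) and JNK_KO replicate 1 (Oxtr) that of 1 each. JNK_WT replicate 1 was lowest for 5 genes and JNK_KO replicate 3 for none. Over the 25135 genes above 0 in some library, JNK_WT replicate 2 was highest for 23.2% and JNK_KO replicate 3 for 22.7%. The 10 genes were not a block that rose and fell together: Acta2 and Myl9 were lower in JNK_WT replicate 2 than in replicate 1, whereas Trp63, Snai2, Cnn1 and Mylk were higher there. Libraries are single, and no test of a difference between lines is possible.

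The lines of a genotype differed by more than the genotypes did. On the log2(FPKM + 1) scale, on which a difference understates the change of a low gene, the median absolute difference of the 5 genes expressed highly enough to be tested (at least 1 FPKM in at least 2 libraries: Trp63, Snai2, Acta2, Myl9 and Tagln) was 1.85 between the JNK_WT lines, 0.99 between the JNK_KO lines and 0.39 between the genotype means. Over all 12998 genes tested the same medians were 0.43, 0.33 and 0.27. A difference of means averages 2 libraries a side and a difference of lines does not, which holds for all genes alike. Between the JNK_WT lines, 4 of the 5 differed by over 0.75, beside 27.5% of all genes tested, and between the JNK_KO lines 3 of the 5 did, beside 18.5%.

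Trp63 differed by 4.42 between JNK_WT replicates 2 and 1, a difference larger than that of 99.2% of the genes tested, and by 1.81 between JNK_KO replicates 3 and 1, larger than that of 96.3%. Acta2 led between the JNK_KO lines, with 3.47 (larger than 99.1% of genes), and was 1.0 lower in JNK_WT replicate 2 than in replicate 1. Snai2 differed by 2.50 between the JNK_WT lines and by -0.99 between the JNK_KO lines, and Myl9 by -1.85 and -0.11. Tagln was the exception, with 0.02 between the JNK_WT lines, a smaller difference than that of nearly all genes, and 0.34 between the JNK_KO lines. The genotype differences were larger than those of 37.9% of genes for Tagln, 53.8% for Trp63 and 64.1% for Snai2. For Acta2 and Myl9 they were larger than those of 78.5% and 80.2%.

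**Figure D3:**
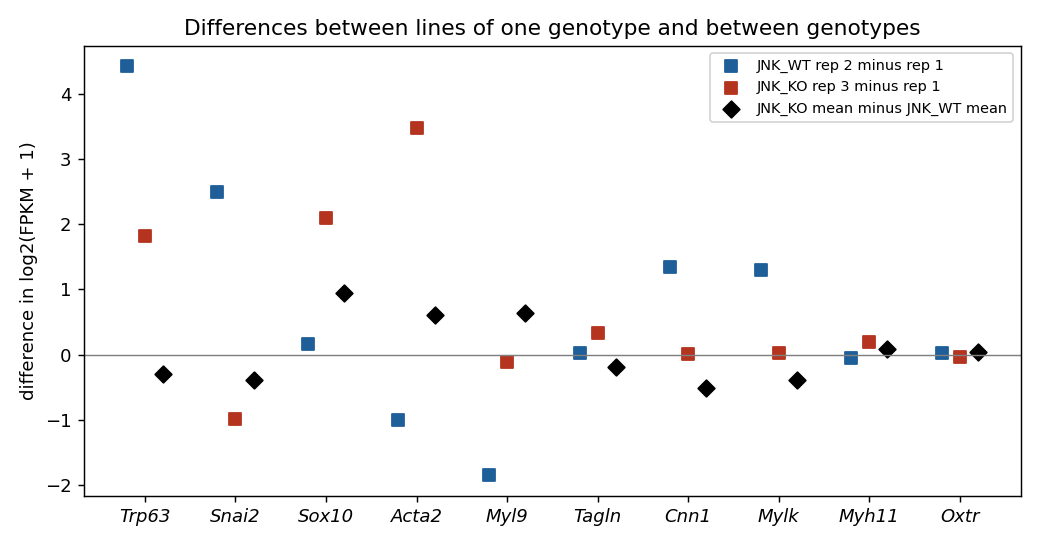
Differences in log2(FPKM + 1) for each gene. Blue squares are JNK_WT replicate 2 minus replicate 1, red squares are JNK_KO replicate 3 minus replicate 1, and black diamonds are the JNK_KO mean minus the JNK_WT mean. The largest squares are Trp63 between JNK_WT lines (4.42) and Acta2 between JNK_KO lines (3.47), and every diamond lies between -0.51 and 0.94.

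The comparison the design implies asks whether loss of JNK in p53-deficient tumor cells went with a change in these genes, and none was found. None of the 5 tested genes was called by limma at an adjusted p under 0.05 with a log2 difference over 0.75, beside 0% of the 12998 genes tested, and none had an unadjusted p under 0.05, beside 7.63%. Pseudocounts of 0.1 and 0.5 and a fit with no intensity trend, which called 10, 14 and 14 genes of the table, called none of the 5 either. With 2 lines against 2 the smallest p an exact permutation test can give is 0.333.

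Myl9 had the largest difference among the tested genes, 0.64 higher in JNK_KO (SE 0.68, limma adjusted p = 0.979). Acta2 differed by 0.60 (SE 1.24), Tagln by -0.19 (SE 0.31), Trp63 by -0.29 (SE 1.62) and Snai2 by -0.39 (SE 0.94), each with a limma adjusted p of 0.999. No difference exceeded its own standard error, and the SE of Trp63 and Acta2 is above 1, so a doubling of either gene would be smaller than the error. Without JNK_WT replicate 2, the difference of Trp63 turned to 1.92, and without JNK_WT replicate 1 it was -2.50. Leaving out JNK_KO replicate 3 turned Acta2 to -1.14, and leaving out JNK_KO replicate 1 gave 2.34. Without JNK_WT replicate 2, Myl9 was at -0.28 and Snai2 at 0.86, and no limma adjusted p of the 5 genes fell under 0.453 in any alternative.

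No tested gene was over 0.75 in either direction, beside 9.25% of all genes tested that were higher and 6.43% that were lower. The groups did not overlap for 1 of the 5, Tagln, which was lower in JNK_KO, beside 35.0% of all genes tested in either direction and 16.7% in that one. When genes of any level were included, all 10 were tested and none was called, with limma adjusted p between 0.866 and 0.994. The groups then did not overlap for 2 of 10, Tagln and Oxtr, beside 32.2% of the 25135 genes above 0, and Sox10 was the gene over 0.75, with 0.94, which rests on JNK_KO replicate 3 alone. The median log2 difference of the 5 tested genes was -0.19, beside 0.01 over all genes tested.

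The smooth muscle proteins have non-muscle relatives that nearly all cells use, and these carried almost all of each family's RNA. Acta2 made up 0.185% and 0.122% of the summed FPKM of Acta2, Actg2, Actc1, Actb and Actg1 in JNK_WT and 0.0504% and 1.14% in JNK_KO (Acta1 was not analysed here). Cytoplasmic actin Actb had 3428, 1942, 2953 and 1977 FPKM in JNK_WT replicates 1 and 2 and JNK_KO replicates 1 and 3, and Actg1, the other cytoplasmic actin, had 411 to 679. Even where Acta2 was highest it was a small part of the actin message. Of the 40-base windows of Acta2, 0.788% are shared exactly with other genes, Actg1 and an actin pseudogene among them. Windows that differ by a few bases were not counted, and Actg1 and Actb were far more abundant than Acta2. The part of their reads in the Acta2 value was not tested.

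Myl9 was between 0.169% and 1.01% of the regulatory light chain FPKM (Myl9, Myl12a and Myl12b), lowest in JNK_WT replicate 2, where Myl12a, the non-muscle light chain, had 584 FPKM. Tagln was 0.223% to 0.552% of Tagln and Tagln2, and Tagln2 had 238 and 265 FPKM in JNK_WT and 367 and 305 in JNK_KO. Cnn1 was 0.861% of the calponins in JNK_WT replicate 2 and between 0.0508% and 0.170% elsewhere, beside Cnn2 with 85.1 to 293 FPKM and Cnn3 with 152 to 251. Myh11 was at most 0.119% of the summed FPKM of Myh11, Myh9, Myh10 and Myh14. In every line the RNA of each family was thus mostly that of its non-muscle relatives.

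**Figure D4:**
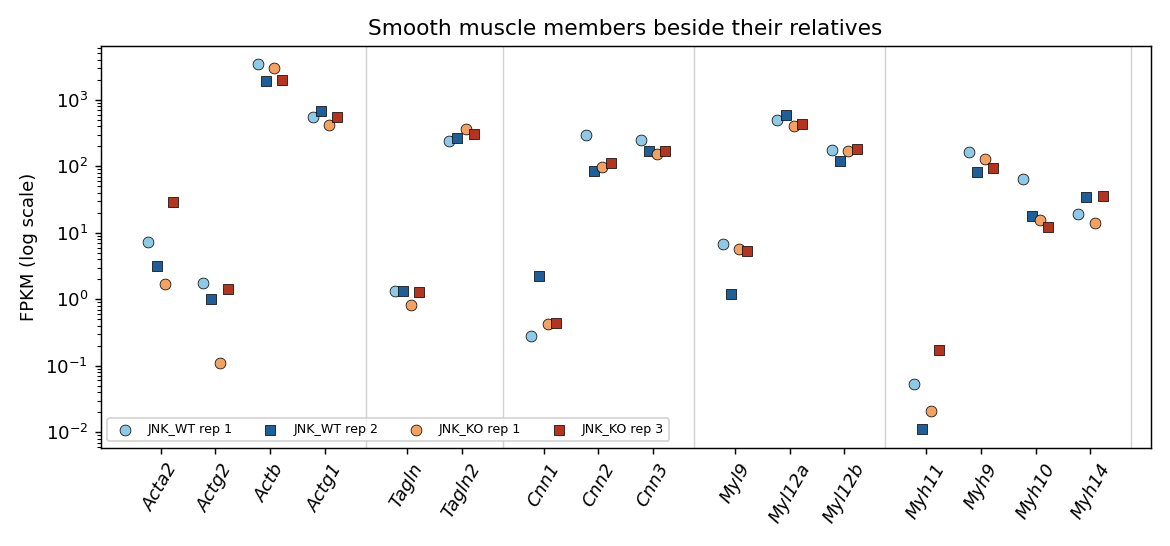
FPKM of each smooth muscle gene beside its relatives in the 4 tumor lines, on a log axis, with families set apart by grey lines. Acta2, Tagln, Cnn1, Myl9 and Myh11 lie between 0.0110 and 29.0 FPKM, and their most abundant relatives (Actb, Tagln2, Cnn2, Cnn3, Myl12a and Myh9) between 83.3 and 3428. Actc1, at or near 0, is not drawn.

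Other genes of the program were counted in lists, none of which had a gene called between the genotypes. Of 14 further smooth muscle genes, 9 were tested, 2 were over 0.75 higher and 3 lower in JNK_KO, the median log2 difference was -0.52, and 1 had an unadjusted p under 0.05. That gene was Pdlim7, an actin-binding adaptor, with 121 and 115 FPKM in JNK_WT and 25.5 and 55.2 in JNK_KO (log2 difference -1.62, limma adjusted p = 0.451). Tropomyosin Tpm1 was the most abundant, with 1534 FPKM in JNK_WT replicate 1 and 308 to 439 in the other lines. Tpm2 had a difference of -1.04, and Actg2, the enteric smooth muscle actin, had 1.74 and 1.0 FPKM in JNK_WT and 0.108 and 1.41 in JNK_KO. The median moved to 0.04 without JNK_KO replicate 1.

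All 19 non-muscle actomyosin genes were tested, with a median of -0.18 and 2 over 0.75 lower: Myh10, a non-muscle heavy chain (-1.24), and Actn1, an actin crosslinker (-0.87). Of 9 genes for Srf and its partners 7 were tested, with a median of -0.12 and none over 0.75. Srf had 10.4 and 16.2 FPKM in JNK_WT and 17.3 and 17.5 in JNK_KO. The partner Fhl2 had the largest difference (-0.56), followed by Srf (0.39), and Elk3 was the most abundant. Myocardin (Myocd), the smooth muscle coactivator, was at 0.00698 and 0 FPKM in JNK_WT and 0 and 0.0850 in JNK_KO, while the myocardin-related factors Mkl1 and Mkl2 were at 5.31 FPKM or more in every line. Thus Srf and its general coactivators were present at readable levels and myocardin was at or near 0 in all 4 lines.

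Of 15 oxytocin pathway genes, 11 were tested, with a median of -0.06. Plcb4, a phospholipase C, had an unadjusted p under 0.05, with 7.25 and 3.07 FPKM in JNK_WT and 1.14 in each JNK_KO line (-1.44, limma adjusted p = 0.539). Itpr3, a calcium channel of internal stores, differed by -0.68, and calmodulin Calm2 led with 373 to 620 FPKM. The hormone gene Oxt was at most 0.0382 FPKM, and so near 0 like its receptor. Of the downstream genes, Plcb2 and the calcium channel Cacna1c were also near 0, at most 0.0175 and 0.123 FPKM. Avpr1a, also of this list and below the level for testing, had 0 FPKM in both JNK_WT lines and 0.308 and 1.36 in JNK_KO.

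Among transcription factors of epithelial-mesenchymal transition, 5 were tested (Snai3 was not analysed here), with a median of 0.71. Leaving out JNK_WT replicate 2 turned it to -0.33, and leaving out JNK_WT replicate 1 gave 1.75. Zeb1 had 1.96 and 1.02 FPKM in JNK_WT and 7.44 and 5.76 in JNK_KO (1.63, limma adjusted p = 0.378), and Twist1 had 28.4 and 35.8 in JNK_WT and 23.9 and 7.73 in JNK_KO (-1.16). Snai1, the nearest relative of Snai2 listed here, had 16.4 and 3.10 FPKM in JNK_WT and 12.6 and 13.0 in JNK_KO, with its low point in JNK_WT replicate 2, where Snai2 was highest. Snai1 and Snai2 thus had opposite orders in the JNK_WT lines. Zeb1, Zeb2 (0.914 FPKM) and Twist2 (0.136 FPKM) were also lowest in JNK_WT replicate 2, and Twist1 was highest there.

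Of 12 other basal genes all were tested, 4 were over 0.75 higher, 1 was lower, and the median was 0.09. Pdpn, a membrane glycoprotein of basal cells, had a difference of 2.18 with 0.279 FPKM in JNK_WT replicate 2 and 14.1 to 25.9 in the others. Ngfr, the low-affinity neurotrophin receptor, had 4.22 and 0.241 FPKM in JNK_WT and 19.6 and 4.75 in JNK_KO (2.10, limma adjusted p = 0.756). Caveolin Cav1 was the most abundant, with 242 to 617 FPKM. The list did not follow Trp63 as a whole. Of its 12 genes, 4 (Cdh3, Jag2, Dll1 and Id4) were highest in JNK_WT replicate 2, beside 26.9% of all genes tested. That line had the most Trp63, and Pdpn, Ngfr, Egfr, Sparc and Vim were lowest there.

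Of 9 relatives and known targets of p63, 7 were tested, with a median of 0.03 that ranged from -0.54, without JNK_KO replicate 3, to 0.42, without JNK_WT replicate 2. Perp, a desmosomal target, had 107 and 214 FPKM in JNK_WT and 104 and 231 in JNK_KO, which places the 2 lines with more Trp63 above the 2 with less. Trim29 showed the same order as Trp63, with 0.419 and 7.02 FPKM in JNK_WT and 0.530 and 1.37 in JNK_KO (-0.82). Other members did not: Dst, a cytoskeletal linker, was lowest in JNK_WT replicate 2 (28.9 and 4.57 FPKM in JNK_WT, 19.6 and 11.2 in JNK_KO), and Ripk4, a kinase, was highest in JNK_WT replicate 1, the line with the least Trp63 (14.98 FPKM, and 5.60 to 12.5 in the others). Fgfr2, a receptor of fibroblast growth factors, had groups that did not overlap, with 0.951 and 2.24 FPKM in JNK_WT and 6.36 and 17.4 in JNK_KO (2.21, limma adjusted p = 0.458). Trp73, the sister gene of Trp63, was at most 0.542 FPKM. Of the 9 sarcomeric and skeletal or cardiac muscle genes, Tnnt2 alone was tested, with 205 and 52.4 FPKM in JNK_WT and 23.2 and 84.9 in JNK_KO (-1.20).

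**Figure D5:**
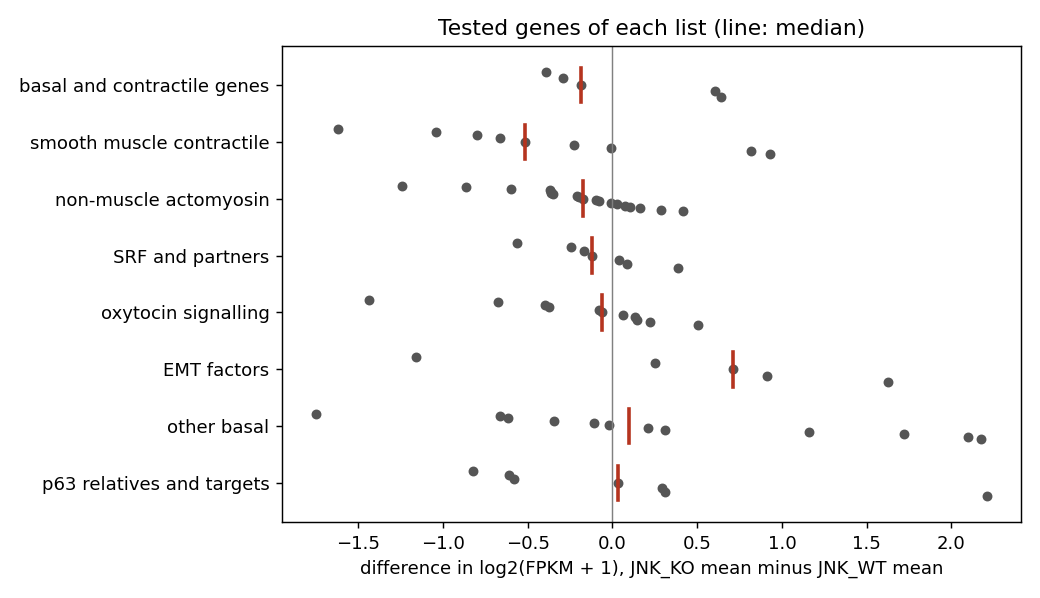
Log2 differences in log2(FPKM + 1), JNK_KO mean minus JNK_WT mean, of the tested genes of each list, 1 point per gene, with the list median as a red line. The 5 tested basal and contractile genes lie between -0.39 and 0.64 with a median of -0.19, the smooth muscle list has its median at -0.52 and the epithelial-mesenchymal transition factors at 0.71, and no gene shown passed the test.

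The summed basal keratins had the same order of lines as Trp63. Their summed level was 18.6 and 707 FPKM in JNK_WT and 35.0 and 340 in JNK_KO, with 2 of 4 tested. Krt14 had 7.34, 443, 26.7 and 313 FPKM in JNK_WT replicates 1 and 2 and JNK_KO replicates 1 and 3. Krt5 had 0.0316, 61.9, 0.110 and 0.205 FPKM in the same order. Krt17, with the largest difference of the list (-1.63), had 10.99, 202, 8.14 and 26.7 FPKM and was lowest in JNK_KO replicate 1, unlike Trp63. JNK_WT replicate 2 had both keratins, JNK_KO replicate 3 had Krt14 with almost no Krt5, and neither of these lines had Myh11 or Oxtr at 1 FPKM, so the label basal held for the lines unevenly. Of the 7 contractile and receptor genes among the 10, Acta2 and Myl9 were at 1 FPKM or more in all 4 lines. The luminal list was high everywhere, at 4979 and 3898 FPKM in JNK_WT and 1821 and 3508 in JNK_KO, with all 11 genes tested. Krt8 had 1045 and 564 FPKM in JNK_WT and 278 and 526 in JNK_KO, and Krt18 had 1466, 752, 385 and 789 in the same order of libraries. Gata3, the luminal master factor, had 1.79 and 1.18 FPKM in JNK_WT and 31.6 and 38.6 in JNK_KO (3.87, limma adjusted p = 0.0903), and Epcam, an epithelial adhesion molecule, had 359.7 and 629.7 in JNK_WT and 150.3 and 286 in JNK_KO (-1.19).

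Acta2, Tagln, Myl9 and Snai2 are also used by fibroblasts and pericytes, and Sox10 by Schwann cells and melanocytes, so markers of those cells are given beside them. The fibroblast list summed to 13.3 and 4.36 FPKM in JNK_WT and 109 and 204 in JNK_KO, with 5 of 10 tested and 3 with an unadjusted p under 0.05. Dcn, a matrix proteoglycan, had 0.430 and 0.389 FPKM in JNK_WT and 79.7 and 162 in JNK_KO (6.35, limma adjusted p = 0.0554), and Pdgfra had 0.325 and 0.183 in JNK_WT and 24.7 and 7.82 in JNK_KO. Col1a1, the main fibroblast collagen, was at most 0.527 FPKM in every line. Acta2 and the summed fibroblast list were both highest in JNK_KO replicate 3. In JNK_KO replicate 1, where Acta2 was lowest, the sum of 109 FPKM was mostly Dcn and Pdgfra. The genes of the list did not share an order of the lines. Postn had 1.32 and 2.58 FPKM in JNK_WT and 0.728 and 25.6 in JNK_KO, highest and lowest in the same lines as Acta2. Col1a2 was highest in JNK_WT replicate 1, with 10.3 FPKM. The part of fibroblast-like RNA in the Acta2 value was not tested.

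The pericyte list summed to 6.02 and 17.4 FPKM in JNK_WT and 5.38 and 10.6 in JNK_KO, with 3 of 7 tested and its defining marker Rgs5 under 1 FPKM in all lines. Mcam differed by -1.41 and Pdgfrb by 1.67, and Notch3 had 0.366, 12.5, 1.64 and 5.30 FPKM, an order shared with Trp63. The Schwann cell and melanocyte list summed to 14.8 and 18.4 FPKM in JNK_WT and 15.4 and 31.5 in JNK_KO, with Mbp and Mitf tested and Dct listed at 0 in all lines. Mitf, a melanocyte factor with other uses, had 1.32 and 3.33 FPKM in JNK_WT and 1.39 and 12.7 in JNK_KO, highest in the line with Sox10. The part of such cells in the Sox10 value was not tested. Leukocyte markers summed to 0.409 to 1.98 FPKM, with Csf1r the most abundant and Ptprc at most 0.0134, and endothelial markers to 0.177 to 0.519 with none tested, so RNA of those cells was near 0.

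On the genome, 4 of the 10 genes (Trp63, Mylk, Myh11 and Snai2) lie on chromosome 16. Of the 5 tested genes 2 lie there (Trp63 and Snai2), and of the 12199 tested genes with a position 3.10% do. Their values did not move together: Trp63, Mylk and Snai2 were highest in JNK_WT replicate 2, and Myh11 was lowest there. The full order of the lines that Trp63 showed (JNK_WT replicate 2, then JNK_KO replicate 3, JNK_KO replicate 1 and JNK_WT replicate 1) was shared by 813 tested genes (6.25%), and Cnn1 and Mylk had it too, at low levels.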

How the data were processed

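RNA from 4 tumor cell lines (2 JNK_WT, 2 JNK_KO) was sequenced as single-end reads of 40 bases. The authors trimmed the reads, sampled them to a similar number per library, aligned them to mm10 (GRCm38) with TopHat2 2.0.14 and Bowtie2, and estimated FPKM with Cufflinks 2.2.1. The deposited table gives FPKM per gene in each library, unpooled. Cufflinks shares reads between overlapping transcripts by an estimate, so close relatives and antisense genes can trade reads. Gene annotation and strand were not given in the sources used here. No columns of the authors' own comparisons were used.

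Of 38741 rows, 27 with symbols turned into dates and 1 with no value were left out. Genes of at least 1 FPKM in at least 2 libraries (12998) were tested on log2(FPKM + 1) with limma 3.58.1 in R 4.3.3 (lmFit, eBayes with an intensity trend, two-sided, Benjamini-Hochberg over the genes tested). Differences are JNK_KO minus JNK_WT. Genes were called at an adjusted p under 0.05 and an absolute log2 difference over 0.75. FPKM are not counts, so no count model was fitted. The fit was also run on simulated data, whose spread was drawn from a distribution fitted over all genes. The observed spread of each gene was not used there, so that run is no check on the genes described here. Read depth was not used, relative depths came from the steps between low values, and no interval that needs read counts was computed. P-values measure only the spread between these 4 libraries.

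The genes and lists were chosen with earlier results of these data known. Named were all 10 genes, Mapk8, Mapk9 and Trp53, 2 basal and 2 luminal keratins, and in each list the most abundant gene, the 2 tested genes with the largest difference and relatives of the 10 genes. Any other gene was named after its values were seen. Another list that was examined is not reported here. Positions came from GENCODE M21 on GRCm38, and promoter windows from RefSeq on GRCm38.p6. Alternatives were other pseudocounts (0.1, 0.5), filters, scalings, variance models, an adjusted p of 0.1, no threshold on the difference and each replicate left out. Figures were made with matplotlib 3.10.9 and summaries with Python 3.11.15 and pandas 2.3.3.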

Additional observations from a re-analysis of the deposited data

How the results depend on the processing

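None of the tested basal and contractile genes was called in any of the 14 alternatives, which include each replicate left out. The count of genes over 0.75 was 0 and became 1 with a pseudocount of 0.1, 1 with 0.5 and 1 with no filter on low values, and 2 to 4 as replicates were left out. The count whose groups did not overlap was 1 and became 2 with no filter and 0 with a filter at a mean of 5 FPKM, which Tagln does not pass, and 2 to 4 as replicates were left out, where fewer samples are compared. The median log2 difference of -0.19 became 0.54 with a pseudocount of 0.1 and -0.48 with quantile normalization, and ranged from -0.36 to 0.59 as replicates were left out. Trp63 reversed to 0.58 with a pseudocount of 0.1, on which scale the low value of JNK_WT replicate 1 weighs more. As single replicates were left out, Trp63 ranged from -2.50 to 1.92, Acta2 from -1.14 to 2.34, Myl9 from -0.28 to 1.57 and Snai2 from -1.64 to 0.86, and Tagln from -0.36 to -0.02. The direction changed without JNK_WT replicate 2 for Trp63, Myl9 and Snai2, without JNK_KO replicate 1 for Trp63 (0.62), and without JNK_KO replicate 3 for Acta2 and Snai2 (0.10). Where a replicate was left out, the lone library was assumed to vary like the other group. Among the lists, the oxytocin median turned to 0.01 with quantile normalization, the non-muscle median to 0.14 without JNK_WT replicate 1, the Srf median to 0.07 and the smooth muscle median to 0.04 without JNK_KO replicate 1, and the median of p63 relatives and targets to -0.46 without JNK_WT replicate 1 and -0.54 without JNK_KO replicate 3. Members with a CArG box rose from 1 to 2 when 1 other base was allowed, an alternative chosen after seeing the data. The cause of the other changes was not tested. No paired analysis was possible because replicate 1 is the only number found in both genotypes, and nothing in the labels ties those libraries to a litter or day.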

Other observations

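Chosen after their values were seen, 28 of the 12998 genes tested (0.215%) had both JNK_WT replicate 2 and JNK_KO replicate 3 at least 5-fold above both other lines and at 5 FPKM or more. Trp63 and Krt14 were among them. Id4, a basal regulator of mammary stem cells, had 8.26 and 134 FPKM in JNK_WT and 8.10 and 53.9 in JNK_KO. Elf5, a luminal progenitor factor, had 0.158 and 12.4 FPKM in JNK_WT and 0.50 and 13.5 in JNK_KO. Dsg3, a desmosomal cadherin of stratified epithelium, had 0.145 and 14.9 FPKM in JNK_WT and 1.09 and 7.01 in JNK_KO. Wfdc18 and Ltf, a secreted mammary protein and the milk protein lactoferrin, reached 85.6 and 116 FPKM and 166 and 83.3 FPKM in the 2 high lines, against at most 3.25 in the others. The genes were selected for being high in these 2 lines, and other basal genes were not: Krt5 had 61.9 FPKM in JNK_WT replicate 2 and 0.205 in JNK_KO replicate 3, and Pdpn had 0.279 in JNK_WT replicate 2. Of the 10 genes described here, Trp63 was the only one among the 28.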
